A study of Mus musculus with 20 samples.

Results

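Regulators of G protein signaling (RGS) were measured in the striatum of 2 mouse lines, as the counts of 8 genes: Rgs2, Rgs4, Rgs7, Rgs8, Rgs10, Rgs14, Rgs16 and Rgs20. The 8 genes were chosen by name, as 8 of the RGS genes other than Rgs9, from the 39179 genes listed in the count files. The choice was made with earlier results of these data known. Each symbol matched 1 Ensembl identifier, and all 8 passed the threshold of over 1 CPM (reads scaled to a common library size) in 3 mice or more, as did 14792 genes in all. The 20 mice were males of generation 17 at about 6.5 months of age. High-Active mice descend from selection for home cage activity and Control mice from the unselected line, and both lines started from 1 inter-cross of 8 inbred strains, so the lines differ by selection and by drift. In each line 5 mice received saline and 5 received 0.25 mg/kg d-amphetamine by intraperitoneal injection, and the striatum was taken 2 hours later. The labels name 13 pairs of parents, 8 in the Control line and 5 in the High-Active line, so some mice of a line are siblings and are not fully independent.

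RGS proteins bind the active, GTP-bound alpha subunit of a heterotrimeric G protein through a shared RGS domain and speed up GTP hydrolysis, which ends signaling by the receptor upstream. They are grouped into subfamilies by the sequence around that domain. Rgs2, Rgs4, Rgs8 and Rgs16 belong to the small R4 subfamily, Rgs7 to the R7 subfamily that pairs with the G protein subunit Gnb5, Rgs10 and Rgs14 to the R12 subfamily, and Rgs20 to the RZ subfamily that acts on Gnaz. In the striatum they act below dopamine, adenosine, opioid and muscarinic receptors, and Rgs9, which is not among the 8, is the one best known there.

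The 4 members of the R4 subfamily lie on chromosome 1, as do Rgs7 and Rgs20, whereas Rgs10 is on chromosome 7 and Rgs14 on chromosome 13 (GRCm38). The genes called between the lines below are Rgs4 (ENSMUSG00000038530) at chr1:169741477-169747642 on the minus strand, Rgs14 (ENSMUSG00000052087) at chr13:55369732-55384687 on the plus strand and Rgs16 (ENSMUSG00000026475) at chr1:153740349-153745468 on the plus strand. The sequences just before the annotated start of the R4 genes are shown as a description. RefSeq (GRCm38.p6) gave 8 start windows for 6 of the 8 genes, and none was matched for Rgs14 and Rgs20. The 150 bases before the start are printed 5′ to 3′ on the strand of the gene, and capitals mark TGACG or its complement CGTCA, the core of the cAMP response element. They lie at chr1:144004150-144004299 (Rgs2, minus strand), chr1:169747643-169747792 (Rgs4, minus strand), chr1:153652887-153653036 (Rgs8, plus strand, the first of its 3 windows) and chr1:153740203-153740352 (Rgs16, plus strand).
Rgs2: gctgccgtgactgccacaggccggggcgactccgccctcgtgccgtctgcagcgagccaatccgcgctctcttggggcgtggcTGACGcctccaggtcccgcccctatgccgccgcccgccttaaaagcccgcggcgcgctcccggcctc
Rgs4: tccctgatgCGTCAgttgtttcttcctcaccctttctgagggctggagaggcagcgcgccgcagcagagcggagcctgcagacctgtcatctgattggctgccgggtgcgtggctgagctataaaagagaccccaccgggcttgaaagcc
Rgs8: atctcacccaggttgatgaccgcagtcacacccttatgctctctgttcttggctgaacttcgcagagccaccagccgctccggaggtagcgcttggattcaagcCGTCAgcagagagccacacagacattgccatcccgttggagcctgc
Rgs16: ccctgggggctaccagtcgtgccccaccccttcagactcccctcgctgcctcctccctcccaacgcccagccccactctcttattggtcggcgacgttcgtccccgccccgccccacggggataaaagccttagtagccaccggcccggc

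Within the printed stretch, Rgs2, Rgs4 and Rgs8 hold 1 core each and Rgs16 holds 0. The other windows of Rgs8 hold 0. In the whole windows, which run from 250 bases before to 50 bases after the start, 3 of the 8 windows of the members hold the core on either strand, against 20.8% of all 32851 windows. The complete site TGACGTCA was in no window of a member and in 1.79% of all windows. These letters describe the windows and say nothing about binding, and a link to how the genes varied among mice was not tested.

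All 8 genes were well covered. Counts on genes summed to 32388971 in the shallowest library and 53710713 in the deepest. Rgs16, the lowest, had 306 to 1302 reads per mouse, and Rgs4 had 12180 to 30771. Per kilobase of exon (RPKM, from CPM and the union of the annotated exons), Rgs4 was highest at 156 ± 28.5 (SD, n = 20 mice), followed by Rgs2 at 40.8 ± 7.87. Rgs10 had 24.9 ± 3.17 and Rgs8 had 22.2 ± 2.35 RPKM. Rgs14 had 13.4 ± 1.90 and Rgs20 had 12.8 ± 1.62 RPKM. Rgs7 had 7.93 ± 0.715 and Rgs16 had 6.04 ± 1.8 RPKM. The order of Rgs10 and Rgs8 held in 17 of 20 mice, that of Rgs14 and Rgs20 in 14 and that of Rgs7 and Rgs16 in 16, so these neighbors are not separated by the spread among mice. The other 4 steps in the order held in all 20 mice. The order depends on the exon lengths used. These lengths are from GENCODE vM21 and not from the Ensembl annotation that the authors used to count reads. By mean CPM, Rgs8 (214) was above Rgs2 (148), and Rgs10 (42.6) was below Rgs14 (57.0), Rgs20 (54.2) and Rgs7 (47.8). The 8 genes are shown per mouse in the plot of CPM by group.

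**Figure D1:**
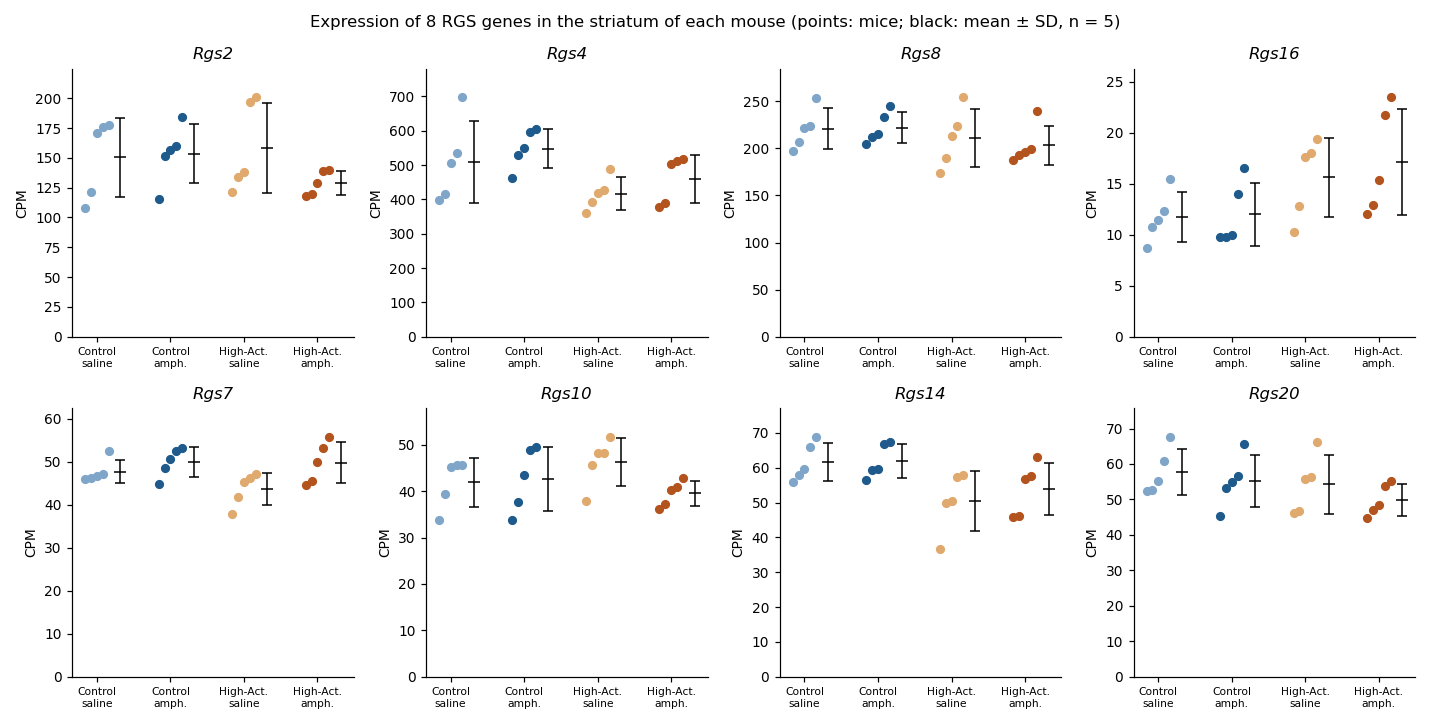
CPM of the 8 RGS genes (y axes, each starting at 0) in the 4 groups (x axes); each point is a mouse and the black mark is the mean with its SD, n = 5. The High-Active points of Rgs4 and Rgs14 sit lower and those of Rgs16 higher than the Control points, with overlap in all 3 genes, and amphetamine and saline points of a line overlap in every panel.

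The tissue itself differed between mice. The 9 markers of medium spiny neurons, the main cells of the striatum, were present in every mouse at 90.4 CPM or more, and 0 of 9 passed the line test, with 8 of 9 values negative. Markers of excitatory cortical neurons had lower values in High-Active mice for 8 of 9 genes, of which 3 passed the test (summed level 163 to 968 CPM in High-Active and 296 to 831 CPM in Control mice), and 8 of 9 had higher values after amphetamine, with 0 called. The 2 thalamic markers summed to 15.9 to 90.9 CPM in High-Active and 16.1 to 39.6 CPM in Control mice, and 1 of them, Tcf7l2, passed the line test. The 4 choroid plexus markers summed to 31.3 to 898 CPM in High-Active and 20.5 to 731 CPM in Control mice, and 0 of 4 passed it. Glial markers differed as well. Of 7 oligodendrocyte markers, all had positive line values and 2 were called (Mobp 0.33 and Mbp 0.26), with summed levels of 5392 to 7180 CPM in High-Active and 3876 to 6534 CPM in Control mice. Of 5 astrocyte markers, 4 had positive values and 2 were called (Aldh1l1 0.32 and Gja1 0.19), with summed levels of 924 to 1292 CPM in High-Active and 913 to 1035 CPM in Control mice. Of 7 microglia markers, Itgam was called higher and Aif1 and Csf1r lower (229 to 287 CPM against 234 to 289 CPM summed). The part of glial cells in the line differences of the RGS genes was not tested. The High-Active mice 197 (saline), 415 and 487 (both amphetamine) stood apart by mean thalamic marker levels above 5 on the log2 CPM scale, with the highest of the other 17 mice at 4.59. In bulk tissue, fewer cells of a type and less RNA per cell cannot be told apart.

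The first comparison asked which RGS genes differ between the lines. Rgs4 and Rgs14 were lower and Rgs16 was higher in the High-Active striatum, by log2 fold changes of -0.27, -0.24 and 0.46. With the quasi-likelihood test of edgeR and Benjamini-Hochberg adjustment over all genes, these 3 of the 8 members passed an adjusted p (FDR) of 0.1, against 14.5% of the 14792 genes tested. By direction, 1 member rose (background 7.63%) and 2 fell (background 6.9%). The other 5 members did not pass. The median log2 fold change of the 8 members was -0.093, against -0.00093 over all genes, and the median size of a change was 0.11 against 0.084.

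Rgs4, which acts on both Gi/o and Gq alpha subunits and is abundant in forebrain neurons, had in Control saline mice 399, 415, 505, 534 and 697 CPM. Control amphetamine mice had 462, 529, 548, 596 and 605 CPM. High-Active saline mice had 359, 394, 418, 427 and 488 CPM, and High-Active amphetamine mice had 377, 390.0, 502, 512 and 518 CPM. All 10 High-Active mice lay below the Control median of 532 CPM, 4 of them below every Control mouse, and the lines overlapped. The log2 fold change of Rgs4 was -0.27 (standard error 0.095, edgeR adjusted p = 0.0831). It had the same sign within saline, at -0.29 (standard error 0.13), and within amphetamine, at -0.25 (standard error 0.13). The call of Rgs4 was close to the threshold. It was lost without any 1 of 11 mice, with adjusted p from 0.1003 to 0.150: Control saline 448 and 883, Control amphetamine 369, 407, 454 and 457, High-Active saline 197, 499 and 871, and High-Active amphetamine 415 and 487.

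Rgs14, a scaffold that joins an RGS domain to Ras-binding domains and a GoLoco motif and is best known from hippocampal area CA2, had 55.9, 57.9, 59.6, 66.0 and 68.7 CPM in Control saline mice. Control amphetamine mice had 56.5, 59.4, 59.7, 66.7 and 67.3 CPM. High-Active saline mice had 36.6, 49.9, 50.4, 57.4 and 58.0 CPM, and High-Active amphetamine mice had 45.9, 46.2, 56.7, 57.6 and 63.0 CPM. The lines overlapped, with 5 High-Active values under the lowest Control value, and 4 Control mice lay above every High-Active mouse. The log2 fold change of Rgs14 was -0.24 (standard error 0.078, edgeR adjusted p = 0.0607). Its call held in 17 of 20 fits with 1 mouse left out and was lost without Control saline mouse 411 or High-Active amphetamine mouse 415 or 487, with adjusted p from 0.105 to 0.113. With mice of the same parents summed to 13 families, Rgs14 was the member still called, at -0.20 (standard error 0.054, edgeR adjusted p = 0.0783).

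Rgs16, an R4 member that acts on Gi/o and Gq alpha subunits and is known from circadian timing in the suprachiasmatic nucleus, was the lowest member per length. Control saline mice had 8.75, 10.8, 11.4, 12.3 and 15.5 CPM, and Control amphetamine mice had 9.74, 9.75, 10.0, 14.0 and 16.5 CPM. High-Active saline mice had 10.3, 12.8, 17.6, 18.0 and 19.4 CPM, and High-Active amphetamine mice had 12.0, 12.9, 15.3, 21.7 and 23.5 CPM. All but 1 of the 10 High-Active mice lay above the Control median of 11.1 CPM, and 5 lay above every Control mouse. The log2 fold change of Rgs16 was 0.46 (standard error 0.16, edgeR adjusted p = 0.0745), a level 1.37 times that of Control mice. The call was lost without any 1 of 10 mice, with adjusted p from 0.113 to 0.139: Control saline 411 and 883, Control amphetamine 407, 409 and 454, High-Active saline 197, 499 and 871, and High-Active amphetamine 415 and 487. With family as a random block (limma-voom) the adjusted p was 0.121. In the annotation, 10.1% of the exon bases of Rgs16 are shared with an antisense gene, Gm28513, which was not among the genes tested. Rgs8 shares 0.726% of its exon bases with the antisense gene Gm29529, and Rgs20 shares 3.00% with Atp6v1h on the other strand.

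The line differences of these 3 genes moved with the tissue markers. With the cortical marker score (the mean log2 CPM of its 9 genes) as a covariate, the log2 fold changes were -0.15 for Rgs4, -0.15 for Rgs14 and 0.25 for Rgs16. With the thalamic score they were -0.12, -0.14 and 0.18, in the same order. The line calls fell from 2149 to 455 genes with the cortical score and to 675 with the thalamic score, and the members called fell from 3 to 0 in both fits. These scores differ between the lines, so score and line cannot be fully told apart in such a fit. Where the cortical score was centred within each line, which leaves its difference between the lines out, all 3 were called, at -0.27, -0.25 and 0.45. Without mice 197, 415 and 487, 0 of 8 members were called, against 5.97% of 14684 genes, and the values were -0.19, -0.18 and 0.24. The signs were the same in all these fits, and the part of the tissue in the line differences was not tested further.

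**Figure D2:**
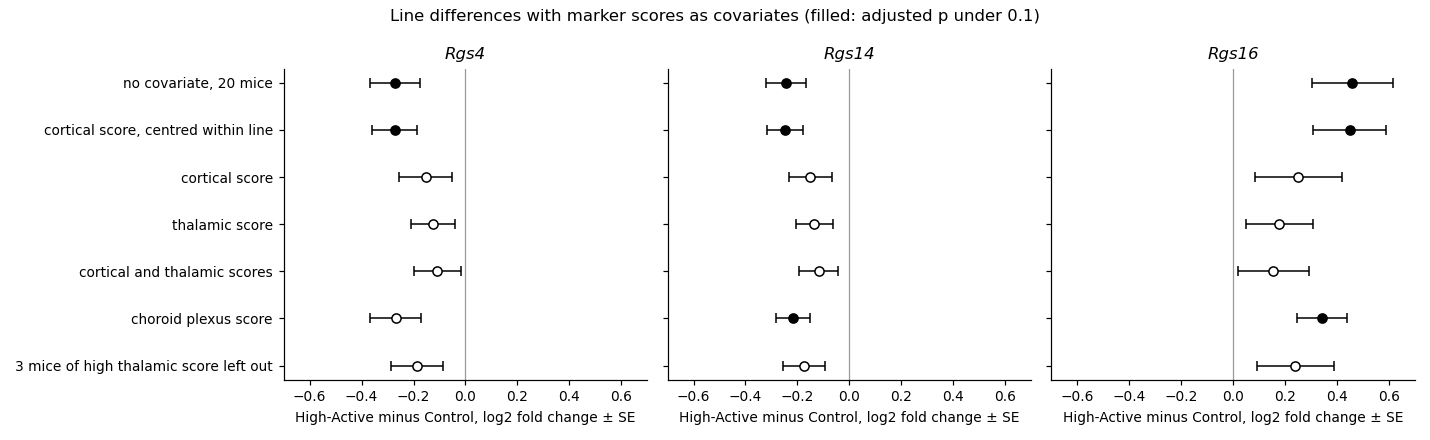
Log2 fold change between High-Active and Control mice (x axes, bars are standard errors) of Rgs4, Rgs14 and Rgs16 in 7 edgeR fits (rows) that differ in marker covariates or in the mice used; filled points have an adjusted p under 0.1. Rgs4 goes from -0.27 to -0.11, Rgs14 from -0.24 to -0.12 and Rgs16 from 0.46 to 0.15 when cortical and thalamic scores are both included, and no value changes sign.

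The other 5 members gave smaller line differences. Rgs8, an R4 member known for speeding up the gating of G protein-activated potassium channels, was at a log2 fold change of -0.096 (standard error 0.066, edgeR adjusted p = 0.375). Rgs20 had -0.12 (standard error 0.075, edgeR adjusted p = 0.338), Rgs2 -0.090 (standard error 0.11, edgeR adjusted p = 0.655) and Rgs7 -0.066 (standard error 0.050, edgeR adjusted p = 0.428). Rgs10, a small R12 member found in microglia and neurons, had 0.017 (standard error 0.076, edgeR adjusted p = 0.913). For Rgs8, 5 High-Active values were under the lowest Control value, and the line means were 207 ± 25.3 and 221 ± 18.2 CPM (SD, n = 10 each). Within 1 treatment, 0 of 8 members passed the line test, in saline (background 3.74%) or in amphetamine (background 1.3%).

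The second comparison asked whether a single dose of amphetamine moved these genes. The quasi-likelihood test called 0 of 8 members and 0 of 14792 genes (0%) for the drug averaged over both lines. At an unadjusted p under 0.05 there were 1844 genes, and at the same FDR DESeq2 called 391 genes and the likelihood-ratio test of edgeR with robust dispersions 458, with 0 members in both. The median log2 fold change of the 8 members was 0.014, against -0.0067 over all genes. Amphetamine changed 0 genes by this test within Control mice and 0 within High-Active mice (940 and 1247 genes at an unadjusted p under 0.05).

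Rgs7, the R7 member that forms an obligate complex with Gnb5 and is tethered by Rgs7bp or Gpr158, had the smallest drug p of the 8. Control saline mice had 45.9, 46.2, 46.8, 47.1 and 52.5 CPM, and Control amphetamine mice had 44.7, 48.6, 50.7, 52.5 and 53.3 CPM. High-Active saline mice had 37.9, 41.9, 45.2, 46.2 and 47.2 CPM, and High-Active amphetamine mice had 44.6, 45.6, 49.9, 53.1 and 55.7 CPM. The treatments overlapped in both lines. The log2 fold change of Rgs7 was 0.13 (standard error 0.050, edgeR adjusted p = 0.304), with 0.067 (standard error 0.071) in Control and 0.19 (standard error 0.071) in High-Active mice. In the 6 families with mice of both treatments, the amphetamine mice of Rgs7 had the higher mean in 6 of 6, by 0.014 to 0.27 on the log2 CPM scale. The fit of the drug within families did not call Rgs7, at 0.096 (edgeR adjusted p = 0.976). Without mice 197, 415 and 487, Rgs7 was the 1 member called for the drug, at 0.19 (standard error 0.048, edgeR adjusted p = 0.0503), against 4.94% of 14684 genes. Under the cortical score as a covariate it was 0.087 with an edgeR adjusted p of 0.939.

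**Figure D3:**
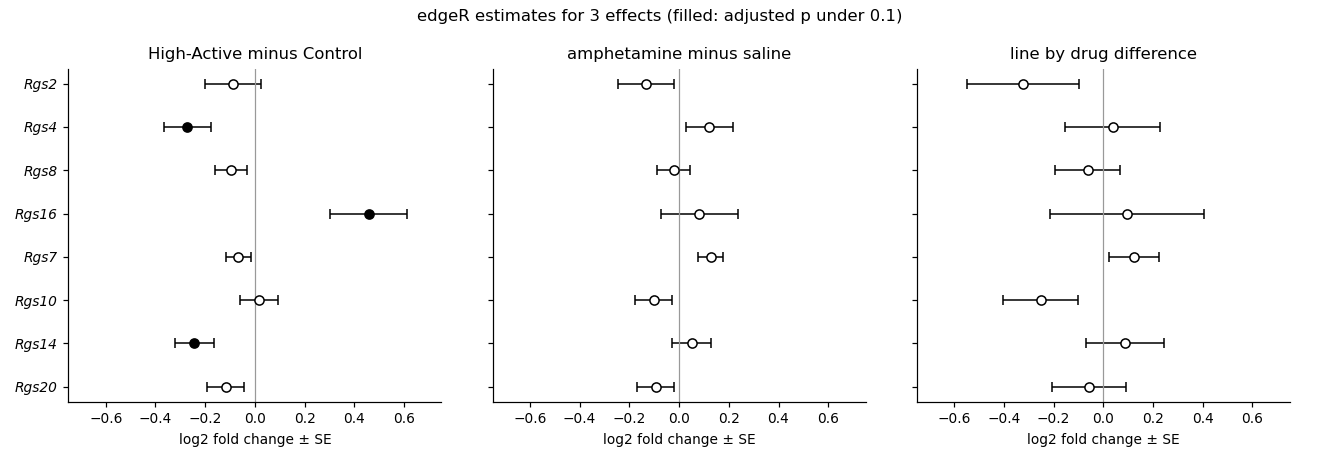
Log2 fold changes with standard errors (x axes) of the 8 RGS genes (rows) for the line, the drug and the line by drug difference from edgeR; filled points have an adjusted p under 0.1. Filled points appear for the line alone, in Rgs4, Rgs14 and Rgs16, and the line by drug values of Rgs2 (-0.32) and Rgs10 (-0.25) lie farthest from 0 in the open points of that panel.

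Rgs2 and Rgs10 had the largest line by drug values of the members, and neither passed the test. Rgs2, an R4 member with a preference for Gq alpha and known as an activity-induced gene in the brain, had 121, 134, 138, 197 and 201 CPM in High-Active saline mice and 118, 120, 129, 139 and 140 CPM in High-Active amphetamine mice. In Control mice it had 108, 121, 171, 176 and 177 CPM after saline and 115, 151, 157, 160.1 and 184 CPM after amphetamine. The 2 High-Active saline mice near 200 CPM, 483 and 499, were higher than every other mouse. The log2 fold change of Rgs2 after amphetamine was -0.30 (standard error 0.16) in High-Active and 0.029 (standard error 0.16) in Control mice, a line by drug difference of -0.32 (standard error 0.23, edgeR adjusted p = 0.99999). For Rgs10 the drug values were -0.23 (standard error 0.11) in High-Active and 0.023 (standard error 0.11) in Control mice, and the difference was -0.25 (standard error 0.15, edgeR adjusted p = 0.99999). High-Active saline mice had 37.9, 45.6, 48.2, 48.2 and 51.6 CPM of Rgs10 and High-Active amphetamine mice 36.1, 37.3, 40.3, 41.0 and 42.8 CPM, so 4 of 5 saline mice lay above every amphetamine mouse.

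The line by drug test of edgeR called 0 of 8 members and 0 of 14792 genes (0%), with 440 genes at an unadjusted p under 0.05, 0 genes in DESeq2 and 6 in the likelihood-ratio test. The interaction values of Rgs4, Rgs8, Rgs14, Rgs16, Rgs20 and Rgs7 lay between -0.063 and 0.12. Over the 32 comparisons of 1 group of 5 mice with another, within a line or within a treatment, the lowest p of a two-sided exact permutation test was 0.0397 (Rgs10 for the drug in High-Active mice and Rgs14 for the line in saline). The lowest Benjamini-Hochberg value was 0.395. The smallest p that 5 against 5 mice allow is 0.00794.

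The 8 genes were then compared with one another among mice of the same group, as Pearson correlations of log2 CPM over 20 mice after the group means were subtracted. Of the 28 pairs, 17 correlated positively and 11 negatively, and 12 had adjusted permutation p under 0.1 for both Pearson's r and Spearman's rho. The share of such pairs among all genes was not computed, so the count does not show covariation particular to RGS genes. Rgs8 and Rgs20 varied most closely (r = 0.83, rho = 0.80, permutation p = 1e-05 and 6e-05, adjusted 0.00028 and 0.00168, the first being the smallest the permutations can give). With the 2 mice of most extreme Rgs8 left out, r was 0.78. Rgs2 and Rgs8 came next (r = 0.73, rho = 0.76, permutation p = 0.00028 and 0.00014, adjusted 0.00392 and 0.00196, r without 2 mice 0.69).

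Rgs16 was the exception among the R4 genes and correlated negatively with Rgs2, Rgs8 and Rgs4. For Rgs2 and Rgs16, r was -0.60 and rho -0.60 (permutation p = 0.00584 and 0.00659, adjusted 0.0409 and 0.0308, r without 2 mice -0.47). For Rgs16 and Rgs20, r was -0.57 and rho -0.64 (permutation p = 0.00864 and 0.00317, adjusted 0.0458 and 0.0222, r without 2 mice -0.61). Rgs8 and Rgs16, whose genes are 40.0 kb apart on the same strand, had an r of -0.51 and a rho of -0.54 (permutation p = 0.0222 and 0.0152, adjusted 0.0691 and 0.0532, r without 2 mice -0.41). Several r values were large in High-Active mice and near 0 in Control mice (n = 10 each). The r of Rgs4 and Rgs16 was -0.88 in High-Active and -0.085 in Control mice, and that of Rgs14 and Rgs16 was -0.71 and 0.12. The r of Rgs4 and Rgs14 was 0.85 in High-Active and 0.0028 in Control mice, and that of Rgs14 and Rgs20 was 0.78 and 0.035. Other pairs went the other way. Rgs7 and Rgs20 had 0.017 in High-Active and 0.87 in Control mice, and Rgs10 and Rgs16 had 0.069 and 0.82. The r of Rgs2 and Rgs10 was 0.49 in High-Active and -0.65 in Control mice. In both lines r was high for Rgs8 and Rgs20 (0.91 in High-Active and 0.74 in Control mice) and for Rgs2 and Rgs8 (0.70 and 0.82). The difference between the lines in r was not tested. The points share libraries and siblings, so the p-values take the mice as more independent than they are. The permutations also made no allowance for the group means that had been subtracted, which makes the p-values too small.

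**Figure D4:**
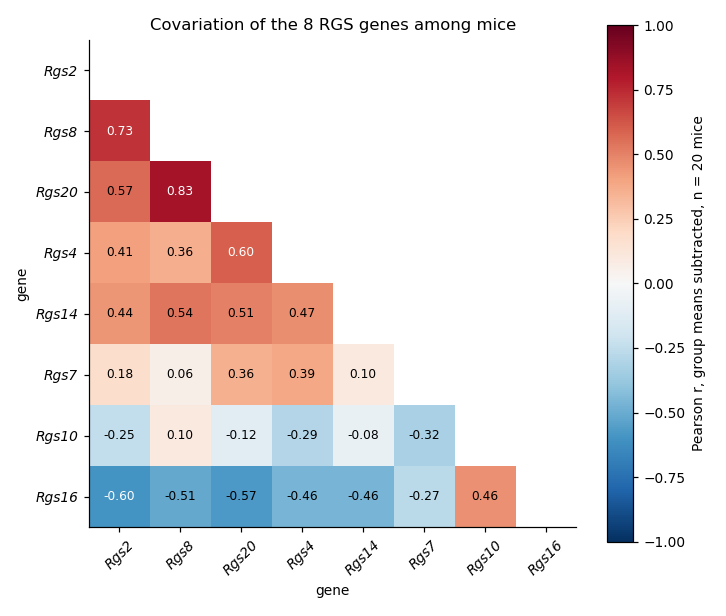
Pearson correlations among the 8 RGS genes (rows and columns) over 20 mice, with group means subtracted; red is positive and blue negative. Rgs2, Rgs8, Rgs20, Rgs4 and Rgs14 are positive with one another over all mice, and Rgs16 is negative with each of them, from -0.46 to -0.60, although some of these values are near 0 within Control mice.

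The same centred values were set against 4 gene lists, 32 relations in all. Rgs2 followed the immediate early genes (Fos, Egr1, Arc, Npas4 and 8 others), which neurons switch on after activity: r was 0.77 and rho 0.76 (permutation p = 0.00011 and 0.00018, adjusted 0.00176 and 0.00248). With the 2 mice of most extreme list score left out, r was 0.68, and within the lines it was 0.78 in Control and 0.76 in High-Active mice (n = 10 each). Rgs14 was also positive with this list (r = 0.48, rho = 0.55, permutation p = 0.0333 and 0.0133, adjusted 0.0788 and 0.0391). Its r was 0.75 within Control and 0.38 within High-Active mice. The list itself had 0 of 12 genes called for the line, the drug or line by drug. Its line by drug values were negative for 11 of 12 genes, with a median of -0.45, and that of Rgs2 was negative too. Such values were also negative for 9 of 9 medium spiny neuron markers and 12 of 15 striatal receptor genes, and positive for 9 of 9 cortical markers. The shared sign is thus not particular to this list, and a link was not tested. Of the 14792 genes, Gpr3, Zbtb38 and Egr1 had the highest correlations with Rgs2 (r = 0.84, 0.84 and 0.83).

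Rgs16 followed the choroid plexus markers (Ttr, Kl, Folr1 and Clic6), with r = 0.82 and rho = 0.77 (permutation p = 1e-05 and 0.00016, adjusted 0.00032 and 0.00248). The value was 0.76 without the 2 farthest mice, 0.74 within Control and 0.88 within High-Active mice. Otx2 and Cldn2, both genes of the choroid plexus epithelium, were the 2 genes most like Rgs16 of all tested (r = 0.87 and 0.86). Rgs16 also followed the thalamic markers (r = 0.71, rho = 0.74, permutation p = 0.00034 and 0.00031, adjusted 0.00363 and 0.00248, r without 2 mice 0.62), with 0.46 within Control and 0.84 within High-Active mice. With the choroid plexus score as a covariate, the line difference of Rgs16 was 0.34 (standard error 0.095, edgeR adjusted p = 0.0395). This list was added to the comparison after Otx2 and Cldn2 had been seen.

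Rgs4 and Rgs14 went the other way with the thalamic markers. For Rgs4, r was -0.67 and rho -0.74 (permutation p = 0.00126 and 0.00026, adjusted 0.0101 and 0.00248, r without 2 mice -0.59), with -0.64 within Control and -0.87 within High-Active mice. For Rgs14, r was -0.64 and rho -0.66 (permutation p = 0.00264 and 0.00191, adjusted 0.0169 and 0.0102, r without 2 mice -0.53), with -0.35 within Control and -0.69 within High-Active mice. Rgs20, which was not called between the lines, had r = -0.61 and rho = -0.73 (permutation p = 0.00457 and 0.00046, adjusted 0.0210 and 0.00294, r without 2 mice -0.63). Rgs2 and Rgs8, also uncalled between the lines, were negative with the thalamic markers as well. For Rgs2, r was -0.47 and rho -0.55 (adjusted permutation p = 0.0788 and 0.0391). For Rgs8, r was -0.48 and rho -0.53 (adjusted permutation p = 0.0788 and 0.0479). Rgs10 correlated negatively with the cortical markers (r = -0.54, rho = -0.61, permutation p = 0.0128 and 0.00448, adjusted 0.0513 and 0.0205, r without 2 mice -0.63). With the same markers Rgs14 had r = 0.48 and Rgs16 r = -0.47, each with adjusted permutation p of 0.0788 and 0.0951. Choroid plexus markers were negative with Rgs14 (r = -0.60, adjusted permutation p = 0.0210 and 0.0391). That r was -0.078 within Control and -0.87 within High-Active mice. They were also negative with Rgs8 (r = -0.54, adjusted permutation p = 0.0525 and 0.0286) and Rgs20 (r = -0.46, adjusted 0.0823 and 0.0712). The plot of list scores shows 3 of these relations before centring.

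**Figure D5:**
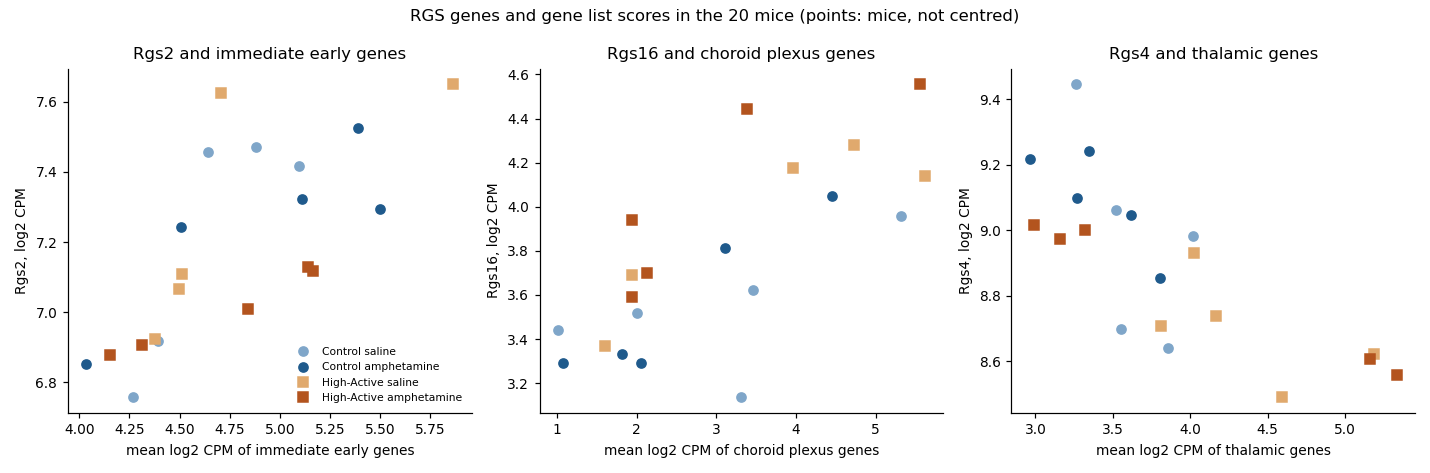
Log2 CPM of Rgs2, Rgs16 and Rgs4 (y axes) against the mean log2 CPM of immediate early, choroid plexus and thalamic genes (x axes); each point is 1 of 20 mice, circles are Control and squares High-Active. Rgs2 and Rgs16 rise along the axis, and Rgs4 falls, with the High-Active mice 197, 415 and 487 at the right end of the thalamic axis, above 5.

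The genes most like the other members were named by the same measure. For Rgs8 they were Gnal, the Gs-type alpha subunit of striatal dopamine and adenosine receptors (r = 0.92), Btaf1 (0.90) and Fam102b (0.89). For Rgs20 they were Dlg2 (r = 0.93), Rab3gap2 (0.91) and Penk, the enkephalin precursor of indirect pathway neurons (0.88). For Rgs14 they were Ptk2b (r = 0.88), Plk2 (0.88) and Ddn (0.83), and for Rgs4 Ube2g1 (0.87), Alas1 (0.86) and Brdt (0.84). For Rgs7 they included Rspo3 (r = 0.86) and Kifap3 (0.84), and for Rgs10 they were Dek (0.84), Tmem39a (0.80) and Mdm4-ps (0.78).

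Line differences near the members were also counted. Of the genes whose start lies within 500 kb, 2 of 7 were called beside Rgs4, 1 of 9 beside Rgs16 and 2 of 25 beside Rgs14, against 14.5% of all genes. Beside the members that were not called the counts were 3 of 10 (Rgs8, with Rgs16 among them), 4 of 15 (Rgs10), 1 of 3 (Rgs7), 1 of 4 (Rgs20) and 0 of 6 (Rgs2). Beside Rgs4 both rose while Rgs4 fell: Rgs5, a pericyte gene of the R4 subfamily that lies 45.7 kb from Rgs4, had 0.63 (standard error 0.12, edgeR adjusted p = 0.00459), and Ccdc190 had 0.25 (standard error 0.062, edgeR adjusted p = 0.0210). Beside Rgs16 it was Glul, the glutamine synthetase of astrocytes, at 0.23 (standard error 0.056, edgeR adjusted p = 0.0213). Beside Rgs14, Unc5a had -0.18 and Tmed9 -0.11. Of the 6 markers of endothelial cells and pericytes, 0 passed the line test, with 4 values positive, 2 negative and a median of 0.066. The part of these cells in the line difference of Rgs5 was not tested.

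Of the 14 other RGS genes, 10 were tested, and 3 rose and 1 fell in High-Active mice, against 14.5% of all genes called. Besides Rgs5 these were Rgs3 at 0.29 (standard error 0.096, edgeR adjusted p = 0.0702), Rgs22 at 0.64 (standard error 0.23, edgeR adjusted p = 0.0939) and Rgs12, a large R12 relative of Rgs10 and Rgs14, at -0.28 (standard error 0.090, edgeR adjusted p = 0.0651). Rgs9 was at -0.29 (standard error 0.11, edgeR adjusted p = 0.1015), just past the threshold. The partners of the R7 subfamily had 1 of 4 tested genes called, Rgs7bp, the membrane anchor of Rgs7 and Rgs9, at -0.23 (standard error 0.081, edgeR adjusted p = 0.0875). Gnb5 was at -0.17 with an edgeR adjusted p of 0.122.

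Targets and effectors of the RGS proteins were taken from lists of alpha subunits, beta and gamma subunits, effectors, other regulators and striatal receptors. Together with the other RGS genes and the R7 partners, these lists named 83 genes, of which 74 were tested, 8 rose and 7 fell (20.3%, against 14.5% of all genes), and 0 were called for the drug or for line by drug. Of the Gi, Go and Gz alpha subunits 1 of 5 was called, Gnaz, the substrate of Rgs20, at -0.17 (edgeR adjusted p = 0.0563). Of the 4 Gq-type alpha subunits 0 were called, with the smallest p for Gna11 at -0.042, and of the 4 Gs and G12 type subunits 1 was called, Gna12 at 0.16 (edgeR adjusted p = 0.0540). The beta and gamma subunits had 2 of 12 called, Gnb4 at -0.34 (edgeR adjusted p = 0.0462) and Gng11 at 0.48 (edgeR adjusted p = 0.0110).

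Effectors had 4 of 15 genes called, against 14.5% of all genes. The adenylyl cyclases Adcy1 and Adcy9, which make cAMP, fell, at -0.49 and -0.29 (edgeR adjusted p = 0.0551 and 0.0302), while Plcb4, the phospholipase below Gq, and Kcnj5, a G protein-gated potassium channel subunit, rose, at 0.28 and 0.62 (edgeR adjusted p = 0.0627 and 0.0838). Adcy1 and Adcy9 had drug values of 0.53 and 0.34, uncalled and opposite in sign to the line. A relation of Adcy1 and Adcy9 to the cortical markers, of which 8 of 9 had higher values after amphetamine, was not tested. Of the 15 striatal receptors, 13 had negative line values and 2 were called, the muscarinic receptor Chrm1 at -0.29 and the opioid receptor Oprm1 at 0.45 (edgeR adjusted p = 0.0630 and 0.0532). Of the 5 other alpha subunit regulators tested 0 were called, with the smallest p for Rap1gap at -0.15. The share called in these lists was not compared with other genes by a test, and their calls were not followed in the fits with marker scores.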

How the data were processed

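Striatal RNA of 20 mice was sequenced as paired ends from stranded TruSeq libraries pooled over 5 lanes. The authors converted reads with CASAVA 1.8.2, aligned them to GRCm38 with TopHat2 2.0.10 (Bowtie2 2.1.0, SAMtools 0.1.19) and counted them per Ensembl gene with htseq-count (HTSeq 0.6.1); its strand setting is not given in the sources used here. The deposited values are raw counts per gene, one file per mouse. Rows that name no gene held 16.0% to 17.5% of each file's counts and were left out.

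Groups and parents were taken from the labels. Genes above 1 CPM in at least 3 mice were normalized by TMM and tested with edgeR 4.0.16 (glmQLFit and glmQLFTest, R 4.3.3) with a mean for each group. Contrasts were High-Active minus Control, amphetamine minus saline, and their interaction, with Benjamini-Hochberg adjustment over 14792 genes and a threshold of 0.1; the script was tested on simulated data. Log2 CPM used a prior count of 2. Correlations used 100000 permutations (scipy 1.17.1), and with n = 5 per group exact permutation tests were run. Alternatives included RLE, other expression filters, DESeq2 1.42.0, limma 3.58.1 with family blocks, marker covariates and each mouse left out. The replicates are separate mice, of which some share parents. The standard errors of edgeR include the spread among mice as well as counting error, and no intervals are given.

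The 8 members and all lists were chosen with earlier results of these data known. Named are the members, pathway genes called in any effect or of the smallest line p in their list, the 3 genes most like each member (1 of them is not reported here), and called neighbors of called members. Coordinates are from GENCODE vM21 (GRCm38). Protein sequences were not analysed here.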

Additional observations from a re-analysis of the deposited data

Results flagged for a closer look

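A single mouse stood far from the other 4 of its group in 2 of the 32 combinations of gene and group examined, where chance alone marks about 1 in 20. Rgs8 was highest in High-Active amphetamine mouse 905, at 7.90 on the log2 CPM scale, with the next mouse at 7.64 and the lowest at 7.55. Rgs7 was highest in Control saline mouse 448, at 5.71, with the next mouse at 5.56 and the lowest at 5.52. Without mouse 448 the drug difference of Rgs7 was 0.15 and uncalled, and without mouse 905 that of Rgs8 was -0.055 and uncalled.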

How the results depend on the processing

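The line difference of Rgs4 (-0.31 to -0.11), Rgs14 (-0.27 to -0.12) and Rgs16 (0.15 to 0.53) kept its direction under every alternative run, and their calls did not hold throughout. With no low-count filter Rgs4 had an edgeR adjusted p of 0.107, and with the choroid plexus score 0.106. The covariate fits with thalamic, cortical and thalamic, or choroid plexus scores and the fit without 3 mice were chosen after seeing the data. Leaving out 1 mouse in turn gave 0 to 3 members and 1381 to 2535 genes called between the lines, 0 members and 0 to 339 genes for the drug, and 0 members and 0 to 1 gene for line by drug. The cause of these changes was not tested. Mice share no replicate number, so no replicate block could be fitted; pairing by parents was possible, and the drug was compared within families.

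Genes called between the lines were 455 with the cortical score, 675 with the thalamic score, 422 with both, 609 with counts summed over families and 876 without mice 197, 415 and 487, and members called were 0, 0, 0, 1 and 0. For the drug, 458 genes were called by the likelihood-ratio test, 391 by DESeq2, 1 within families and 726 without the 3 mice (1 member), and for line by drug 6 by the likelihood-ratio test and 1 within families.

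Of 312 values of single members under alternatives that keep the mice or leave out 3, 26 changed sign, all uncalled. For the line these were Rgs2 (0.0073 with both scores, 0.037 with the thalamic score) and Rgs10 (-0.089 cortical, -0.033 summed families, -0.077 both, -0.0096 thalamic). For the drug they were Rgs4 (-0.031 with the cortical score, centred or not), Rgs8 (0.041 both), Rgs16 (-0.015 within families, -0.043 without 3 mice), Rgs10 (0.035 cortical, centred or not, 0.049 both) and Rgs14 (-0.071 cortical, centred or not, -0.043 within families, -0.039 both, -0.0064 thalamic). For line by drug they were Rgs4 (-0.081 cortical, centred or not, -0.033 likelihood-ratio test, -0.063 within families, -0.029 both, -0.0050 thalamic) and Rgs16 (-0.16 without 3 mice). With 1 mouse left out, 19 of 480 values changed sign, all uncalled. The ranges of the results concerned were -0.021 to 0.047 for Rgs10 by line, -0.055 to 0.015 for Rgs8 by drug, and for line by drug -0.10 to 0.12 (Rgs4), -0.13 to 0.012 (Rgs8), -0.047 to 0.24 (Rgs16), -0.0067 to 0.14 (Rgs14) and -0.12 to 0.025 (Rgs20).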

Other observations

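The home cage distance of each mouse at re-phenotyping was set against the 8 genes within each line, since the lines differ in distance by selection. Of the 16 relations, each over 10 mice of both treatments, 0 had a permutation p under 0.05 after adjustment, and the lowest adjusted values were 0.759 for Pearson's r and 0.168 for Spearman's rho. Treatment means were not subtracted in these relations, so they do not separate distance from treatment. Rgs7 in High-Active mice had rho = 0.78 and r = 0.42 (permutation p = 0.0105 and 0.246, adjusted 0.168 and 0.759), and r was 0.74 without the 2 mice farthest from the median distance. In Control mice it had rho = 0.26 and r = 0.25 (permutation p = 0.468 and 0.508, adjusted 0.877 and 0.759), and r without the 2 farthest mice was -0.22.

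In the 6 families with both treatments, the other 7 members had no common direction. Rgs2, Rgs8, Rgs16, Rgs10 and Rgs20 had lower amphetamine than saline values in 4 of 6 families, Rgs4 in 2 and Rgs14 in 3. The widest span was that of Rgs16, from -0.56 to 1.19 on the log2 CPM scale.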
